A study of Danio rerio with 20 samples.

Results

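Skin of zebrafish (Danio rerio) exercised at 3 years of age was set against skin of unexercised fish of 1 year, to ask what of the young state is or is not present after exercise at the older age. The members are 10 of the study's 20 RNA-seq libraries, defined by their labels of age and perturbation. Of these, 5 come from exercised 3-year fish (perturbation given as swim-tunnel, where fish have to swim against flowing water) and 5 from unexercised 1-year fish (perturbation given as none). The other 10 libraries, 5 from unexercised 3-year fish and 5 from exercised 1-year fish, complete the crossing of age with exercise and are given beside the members. All fish were male and of the strain given as AB JxTu, the tissue is given as skin throughout, and 1 library was made per sample from total RNA. The sources used here give no swim duration or speed, no hour of sampling and no housing. The members' groups differ in age and in exercise at once, so that within this comparison the part of either cannot be told apart. The labels pair no fish between groups, and p-values set differences between groups against the spread between samples within groups.

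Levels are given in CPM, a gene's read count scaled to a fixed library size after TMM normalization, which evens out differences in composition between libraries. Total counts ran from 29280697 to 42117170 in exercised 3-year and from 31272180 to 43187976 in unexercised 1-year libraries, and their means did not differ beyond the spread (two-sided exact permutation test, p = 0.714, where 5 against 5 allow no p below 0.00794). On the second principal component of log CPM the member groups did not overlap, and on the first, exercised 3-year replicates 4 and 5 and unexercised 1-year replicate 5 stood apart from their groups. Keratinocyte and collagen transcripts of skin were high in all members: the summed level of 20 basal keratinocyte genes was 38630 to 64390 CPM in exercised 3-year and 47940 to 59820 CPM in unexercised 1-year libraries, and that of 23 dermal collagens 4955 to 15580 CPM in exercised 3-year and 7925 to 11950 CPM in unexercised 1-year libraries. For unexercised 1-year replicate 1 the count column carries the word muscle, against a label of skin. The summed level of 40 fast skeletal muscle genes was 4518 to 30440 CPM in exercised 3-year and 6255 to 16060 CPM in unexercised 1-year libraries, where that library's 11520 CPM was the median. In whole skin, fewer cells of a type and less RNA per cell cannot be told apart.

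Skin of fish holds a daily clock in its own cells, and in zebrafish that clock is set directly by light. CLOCK and BMAL proteins drive genes such as the period and cryptochrome repressors and the nuclear receptor NR1D1, these proteins in turn shut down the activators, and output factors that bind the D-box (the DBP and TEF family) carry the rhythm to other genes. The rest of the organ is an epidermis of keratinocytes and mucous cells over a dermis of collagen, with pigment cells, vessels, resident immune cells and bony scales that osteoblasts build and osteoclasts remodel.

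In the comparison of exercised 3-year with unexercised 1-year skin, 1489 of 20788 tested genes passed an adjusted p of 0.05 (7.16%), 881 higher (4.24%) and 608 lower (2.92%). For 754 the fold change exceeded 2-fold. The test was edgeR's quasi-likelihood F-test in 1 model of all 4 groups, with Benjamini-Hochberg adjustment over all tested genes, and fold changes are on the log2 scale, each with a standard error (SE). All 5 libraries of one group lay above all 5 of the other for 632 genes higher (3.04%) and 695 lower (3.34%) in exercised 3-year fish. The count depended on single libraries: leaving out exercised 3-year replicate 1 gave 972, and leaving out unexercised 1-year replicates 1, 2 or 4 gave 948, 890 or 776. Fitted on these 10 libraries alone, 610 genes passed, 298 higher and 312 lower.

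Both steps that lead from one group to the other had fewer calls by the same test. The age step, unexercised 3-year against unexercised 1-year fish, gave 201 genes (0.967%), 103 higher (0.495%) and 98 lower (0.471%). The exercise step, exercised against unexercised 3-year fish, gave 275 genes (1.32%), 167 higher (0.803%) and 108 lower (0.52%). Each step shares 5 libraries with the comparison of interest, so its values are set beside it here and support nothing. Both step counts moved with single libraries. The age step gave 393, 87, 57, 95 and 60 genes without unexercised 3-year replicates 1 to 5 in turn, and 67, 43, 99 and 48 without unexercised 1-year replicates 1, 2, 4 and 5. The exercise step gave 42, 78, 57, 110 and 68 without unexercised 3-year replicates 1 to 5, 90 without exercised 3-year replicate 5 and 152 without unexercised 1-year replicate 2. Its balance turned as well, to 21 higher and 29 lower when fitted on its own 10 libraries and to 17 and 25, 34 and 44, 21 and 36, and 28 and 40 without unexercised 3-year replicates 1, 2, 3 and 5. A last comparison, of unexercised 3-year with exercised 1-year fish, holds the same difference in age and the opposite one in exercise, and has no library in common with the first. It gave 6220 genes (29.9%), 3289 higher (15.8%) and 2931 lower (14.1%).

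Repressors and output factors of the daily clock were mostly lower, and some by a large factor. Of 47 measured clock genes, 17 were lower and 7 higher in exercised 3-year than in unexercised 1-year skin, against 2.92% and 4.24% of all genes. Fits that each left out 1 of the 20 libraries (leave-one-out fits) gave 15 to 17 lower and 6 to 8 higher. The member groups fitted alone gave 13 lower and 5 higher. NR1D1, a nuclear receptor that represses BMAL1, had 4.49, 3.11, 2.13, 2.14 and 2.12 CPM in exercised 3-year fish and 56.1, 75.6, 126, 146 and 36.15 CPM in unexercised 1-year fish. Every exercised 3-year library was below every unexercised 1-year library (log2 fold change -4.98, SE 0.42, adjusted p = 1.52e-06). The unexercised 3-year libraries (6.77 to 22.7 CPM) and the exercised 1-year libraries (12.6 to 23.4 CPM) lay between the member groups. Its relative NR1D2 had 77, 89.1, 52.8, 56.3 and 43.2 CPM in exercised 3-year fish and 120.3, 145, 214, 193 and 163 CPM in unexercised 1-year fish, also without overlap (log2 fold change -1.39, SE 0.20, adjusted p = 0.000655).

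Among the period repressors, PER1 (ENSDARG00000012499) had 17.4, 18.2, 14.6, 19.5 and 10.6 CPM in exercised 3-year fish and 78.2, 91.9, 119, 101 and 90.3 CPM in unexercised 1-year fish. The groups did not overlap (log2 fold change -2.58, SE 0.18, adjusted p = 9.02e-08), and unexercised 3-year (31.8 to 48 CPM) and exercised 1-year libraries (47.3 to 72.7 CPM) again lay in between. The second gene of that symbol, PER1 (ENSDARG00000056885), had 9.16, 8.83, 1.66, 1.63 and 3.32 CPM in exercised 3-year fish and 8.48, 8.68, 49.2, 37.2 and 28.5 CPM in unexercised 1-year fish. It fell by 2.43 (SE 0.54, adjusted p = 0.0129), although unexercised 1-year replicates 1 and 2 lay within the range of the exercised 3-year libraries. PER3 had 33.9, 54.7, 23.4, 28.3 and 20.3 CPM in exercised 3-year fish and 68.1, 128, 134, 109 and 82.8 CPM in unexercised 1-year fish, without overlap (log2 fold change -1.70, SE 0.25, adjusted p = 0.00102). PER2, which light induces in zebrafish, did not pass: its log2 fold change was -0.28, with a 95% interval of -0.74 to 0.17.

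Several other repressors of the CLOCK and BMAL pair were lower. The gene ciarta, whose mouse counterpart binds that pair, had 13.4, 17.4, 17.4, 6.84 and 11.4 CPM in exercised 3-year fish and 83, 96.8, 159.7, 185 and 67.8 CPM in unexercised 1-year fish (log2 fold change -3.15, SE 0.35, adjusted p = 7.44e-05). No library of either group reached the range of the other. Its copy ciartb fell by 0.97 (SE 0.26, adjusted p = 0.0311) with overlapping groups. The CLOCK inhibitors cipca and cipcb, so named from the mouse gene, changed by -1.55 (SE 0.36, adjusted p = 0.0149) and -1.14 (SE 0.14, adjusted p = 0.000195). Which of the zebrafish cryptochromes repress that pair was not tested, so their changes are not read as those of repressors. CRY2, a cryptochrome that carries the human symbol, had 11.6, 13.5, 18.1, 18.1 and 20.0 CPM in exercised 3-year fish and 30.2, 34.9, 39.7, 43.6 and 38.6 CPM in unexercised 1-year fish. These groups did not overlap (log2 fold change -1.20, SE 0.14, adjusted p = 0.000126), and here unexercised 3-year fish were already as low (16.9 ± 2.16 CPM) and exercised 1-year fish as high (33.2 ± 3.12 CPM, mean ± SD, n = 5 each). Neither CRY1 gene passed, with log2 fold changes of -0.31 (95% interval -0.56 to -0.07) and -0.44 (-1.01 to 0.12).

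The other cryptochromes and photolyases went both ways. Of the zebrafish cryptochromes, cry3b had 134, 151, 146, 108 and 195 CPM in exercised 3-year fish and 25.6, 20.3, 23.5, 16.5 and 35 CPM in unexercised 1-year fish. All exercised 3-year libraries were above all unexercised 1-year ones (log2 fold change 2.60, SE 0.22, adjusted p = 1.27e-06), and unexercised 3-year and exercised 1-year fish averaged 66.5 ± 12.5 and 66.6 ± 18.1 CPM. The genes cry3a and cry4 were higher by 0.79 (SE 0.11, adjusted p = 0.000934) and 0.92 (SE 0.16, adjusted p = 0.00411). In contrast, cry5, known in zebrafish as a photolyase that repairs ultraviolet damage with light energy, had 10.5, 12.3, 8.31, 13.5 and 9.15 CPM in exercised 3-year fish and 19.3, 17.7, 29, 28.4 and 39.4 CPM in unexercised 1-year fish. The groups did not overlap (log2 fold change -1.32, SE 0.22, adjusted p = 0.00271). The related cry-dash fell by 1.37 (SE 0.17, adjusted p = 0.000146), DDB2, which recognises ultraviolet lesions, by 0.96 (SE 0.12) and the strand-break sensor PARP1 by 1.02 (SE 0.21). In the list of photolyases and DNA repair 4 of 22 measured genes were lower and 0 higher, beside 2.92% and 4.24% of all genes. The median was -0.009, from -0.16 without exercised 3-year replicate 3 to 0.07 without replicate 5, against 0.03 over all tested genes.

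D-box factors of the clock output were lower. The activator dbpa had 2.25, 2.02, 1.35, 1.32 and 1.3 CPM in exercised 3-year fish and 10.9, 11.3, 9.03, 9.97 and 9.2 CPM in unexercised 1-year fish. Its groups were far from overlapping (log2 fold change -2.62, SE 0.25, adjusted p = 6.07e-06). Its copy dbpb fell by 2.34 (SE 0.21) and tefa by 1.53 (SE 0.15), each without overlap. The clock repressor BHLHE41, which is not a D-box factor, fell by 1.81 (SE 0.36), also without overlap. Of the D-box repressors, nfil3-6 fell by 1.34 and nfil3-5 rose by 1.19, both with overlapping groups. ciartb, nfil3-5 and nfil3-6 kept the call in 16, 5 and 13 of the 20 leave-one-out fits (highest adjusted p = 0.0786, 0.118 and 0.108, without unexercised 1-year replicate 4, exercised 3-year replicate 1 and unexercised 1-year replicate 4). HSF2, a heat shock factor outside the clock, was also lower without overlap, with 7.26, 5.86, 7.04, 5.42 and 7.33 CPM in exercised 3-year fish and 19.9, 20.7, 28.6, 27.7 and 23.7 CPM in unexercised 1-year fish (log2 fold change -1.87, SE 0.15, adjusted p = 7.57e-07).

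On the activator side bmal2 and rorcb rose. The BMAL1 relative bmal2 had 13.7, 15, 14.8, 14 and 16.9 CPM in exercised 3-year fish and 5.99, 5.93, 8.2, 8.87 and 7.28 CPM in unexercised 1-year fish. The groups did not overlap (log2 fold change 1.04, SE 0.18, adjusted p = 0.00411). Both BMAL1 genes, both CLOCK genes and npas2 did not pass, with log2 fold changes of 0.68, 0.50, 0.48, 0.11 and 0.17 for BMAL1 (ENSDARG00000035732), BMAL1 (ENSDARG00000006791), CLOCK (ENSDARG00000011703), CLOCK (ENSDARG00000003631) and npas2. The receptor rorcb, of a family that activates BMAL1 in mammals, had 63.1, 43.5, 54.9, 36.4 and 28.8 CPM in exercised 3-year fish and 8.15, 8.68, 14.3, 28 and 15 CPM in unexercised 1-year fish. The member groups nearly met, at 28.8 to 63.1 CPM in exercised 3-year and 8.15 to 28 CPM in unexercised 1-year fish (log2 fold change 1.61, SE 0.37, adjusted p = 0.0148), and unexercised 3-year libraries (30.7 to 59.5 CPM) lay within the exercised 3-year range. Its relative RORB rose by 1.56 (SE 0.36) at a level under 1 CPM in every library. The clock members beyond those with the lowest p are given by their role, with their values known.

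**Figure D1:**
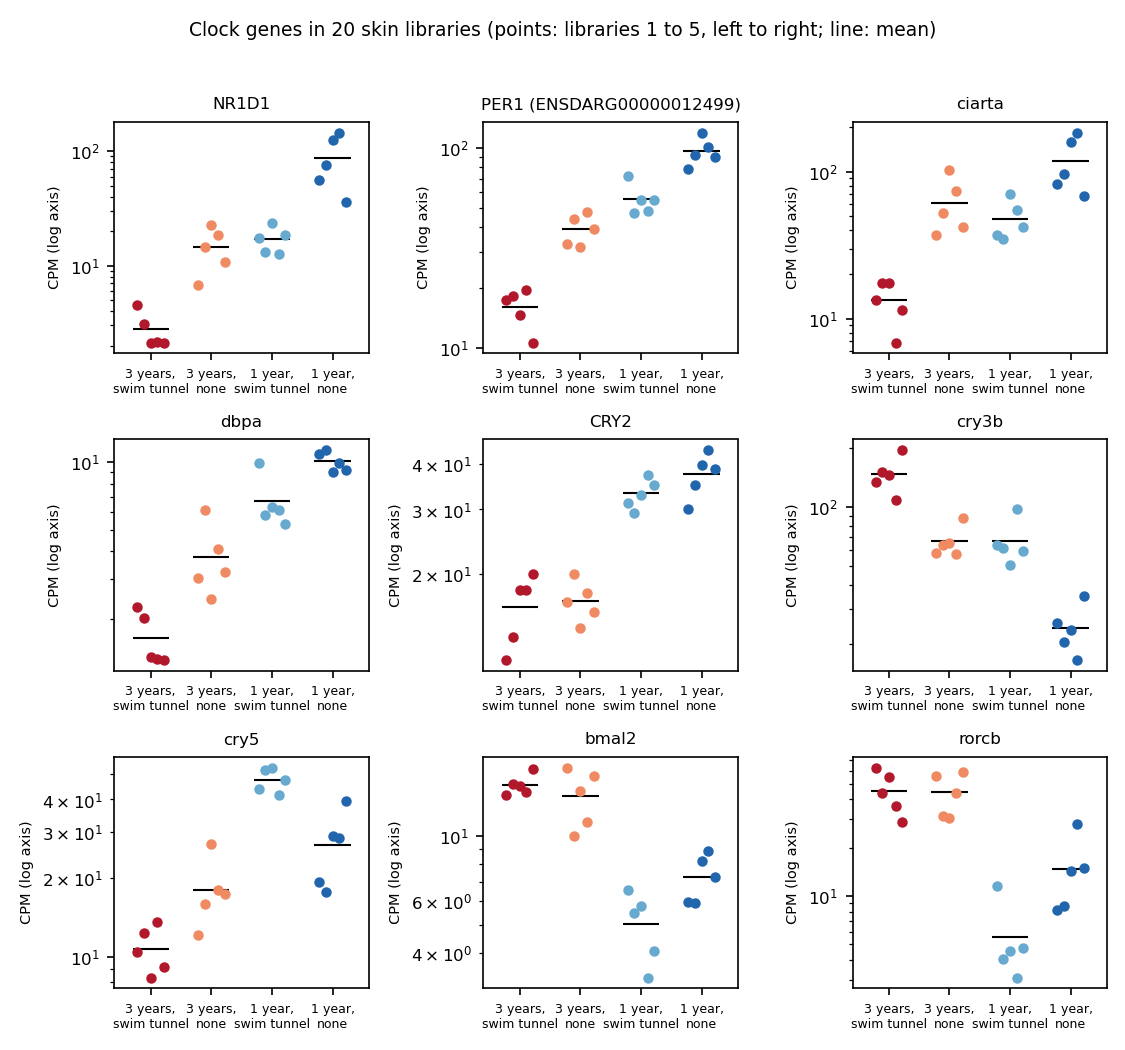
Levels of 9 clock genes in CPM (log axis) in 4 groups of 5 libraries, from left to right exercised 3-year, unexercised 3-year, exercised 1-year and unexercised 1-year fish, with 1 point per library and a line at the mean. NR1D1, PER1, ciarta and dbpa were lowest and cry3b highest in exercised 3-year fish, while CRY2, bmal2 and rorcb separated by age.

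The clock genes differed in where among the 4 groups the change lay. In NR1D1, ciarta, cry3b and NR1D2 the comparison without shared libraries, of unexercised 3-year with exercised 1-year fish, gave log2 fold changes of -0.22, 0.36, 0.00 and 0.32, none of which passed. In CRY2, cipcb, cry5, bmal2 and rorcb it gave -0.97, -1.16, -1.39, 1.44 and 2.99, all past the threshold and in the direction of the first comparison. PER1 (ENSDARG00000012499) showed -0.50 (SE 0.17, adjusted p = 0.0304) there, a smaller value of the same sign. For NR1D1 the age step was -2.58 (SE 0.37, adjusted p = 0.00297) and the exercise step at 3 years -2.40 (SE 0.38, adjusted p = 0.0118). For CRY2 they were -1.14 (SE 0.14, adjusted p = 0.000901) and -0.06 (SE 0.14, adjusted p = 0.865).

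The comparison that shares no library was read over all genes in each direction. Of the 881 genes higher in exercised 3-year than in unexercised 1-year skin, 590 (67%) were also higher in unexercised 3-year than in exercised 1-year skin, and 226 (25.7%) passed in that direction while 72 (8.17%) passed in the opposite one. Of the 608 lower genes, 334 (54.9%) had the same sign, 91 (15%) passed in the same and 95 (15.6%) in the opposite direction. Over all tested genes 49.2% had the same sign, and 15.8% passed higher and 14.1% lower in the second comparison. The 15% and 15.6% of the lower genes were thus near the shares of all genes. As shares of the other list, the 226 genes were 6.87% of its 3289 higher genes and the 91 genes 3.1% of its 2931 lower genes. All tested genes passed higher in 4.24% and lower in 2.92% of cases in the first comparison, so that the 3.1% was also near the share of all genes.

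Of the genes higher in 3-year fish in both comparisons, those with the lowest p are named here. Properdin (cfp), which stabilises the alternative complement convertase, had 15.8, 17, 22.9, 13.6 and 18.2 CPM in exercised 3-year fish and 5.44, 5.5, 7.04, 7.23 and 6.93 CPM in unexercised 1-year fish. The groups did not overlap (log2 fold change 1.45, SE 0.19, adjusted p = 0.00038), and it had 20.0 ± 5.53 CPM in unexercised 3-year and 7.13 ± 1.55 CPM in exercised 1-year fish. The log2 fold change between those groups was 1.49 (SE 0.19, adjusted p = 8.55e-05). The collagen-binding receptor ANTXR1 (ENSDARG00000025672) had 5.98, 3.77, 5.23, 2.84 and 3.12 CPM in exercised 3-year fish and 1.49, 1.17, 1.53, 1.39 and 0.949 CPM in unexercised 1-year fish. Its lowest exercised 3-year library was above the highest unexercised 1-year one (log2 fold change 1.68, SE 0.26, adjusted p = 0.00182), and the other pair of groups gave 2.13 (SE 0.27, adjusted p = 6.81e-05). The endothelial junction gene jcada, the actin crosslinker flnb and ms4a17a.7 rose by 0.89 (SE 0.16), 0.91 (SE 0.17) and 1.47 (SE 0.28), and by 1.00, 1.08 and 1.76 in the other pair. The gene tnfaip2b had 16.2, 5.96, 22.7, 28.2 and 11.7 CPM in exercised 3-year fish and 3.85, 2.66, 3.4, 1.37 and 1.11 CPM in unexercised 1-year fish, without overlap (log2 fold change 2.78, SE 0.45, adjusted p = 0.00247).

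Lower in both were, beside the clock genes cipcb, CRY2 and cry5, a gene known by its clone name, si:ch211-132b12.7, with 5.22, 7.98, 4.74, 8.37 and 5.24 CPM in exercised 3-year fish and 47.4, 61.8, 50.1, 61.9 and 39.3 CPM in unexercised 1-year fish. The groups lay far apart (log2 fold change -3.04, SE 0.21, adjusted p = 9.02e-08), with 13.5 ± 3.06 CPM in unexercised 3-year and 30.9 ± 5.43 CPM in exercised 1-year fish. The membrane transporter ABCC4 had 35.3, 45.8, 48.7, 46.1 and 55.7 CPM in exercised 3-year fish and 84.9, 83.8, 97.6, 77.4 and 77.5 CPM in unexercised 1-year fish, without overlap (log2 fold change -0.86, SE 0.12, adjusted p = 0.000518), and fell by 0.68 in the other pair. FAM161B fell by 1.03 (SE 0.20) in the first and by 1.97 in the second comparison.

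Other genes passed in opposite directions, and those with the lowest p are named next. Opposite signs require a larger mean difference by exercise than by age, so a grouping by exercise was fixed by this choice. TMTC4, an enzyme that puts mannose on cadherins, had 3.14, 5.28, 5.07, 5.09 and 2.36 CPM in exercised 3-year fish and 10.6, 10.6, 10.6, 10.9 and 10.8 CPM in unexercised 1-year fish. The unexercised 1-year libraries were nearly equal and all above the exercised 3-year ones (log2 fold change -1.35, SE 0.24, adjusted p = 0.00387), and it had 10.7 ± 2.09 CPM in unexercised 3-year and 3.42 ± 1.15 CPM in exercised 1-year fish. The huntingtin partner hap1 had 19.6, 23.9, 18.7, 13.9 and 15.7 CPM in exercised 3-year fish and 66.6, 79.2, 96.3, 75 and 26.3 CPM in unexercised 1-year fish, without overlap (log2 fold change -1.90, SE 0.30, adjusted p = 0.00224), and 55.4 ± 8.46 and 20.0 ± 8.27 CPM in the same other groups. MAP2K6, a kinase upstream of p38, fell by 0.87 (SE 0.18), mast3b by 0.84 (SE 0.14) and atosb by 1.04 (SE 0.13). NHSL3 went the other way, with 20.5, 19.7, 19.6, 17.7 and 37.5 CPM in exercised 3-year fish and 7.04, 10.3, 8.65, 9.73 and 13.4 CPM in unexercised 1-year fish. Its groups did not overlap (log2 fold change 1.23, SE 0.21, adjusted p = 0.00385), and the other pair gave -1.35 (SE 0.21, adjusted p = 0.000273).

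**Figure D2:**
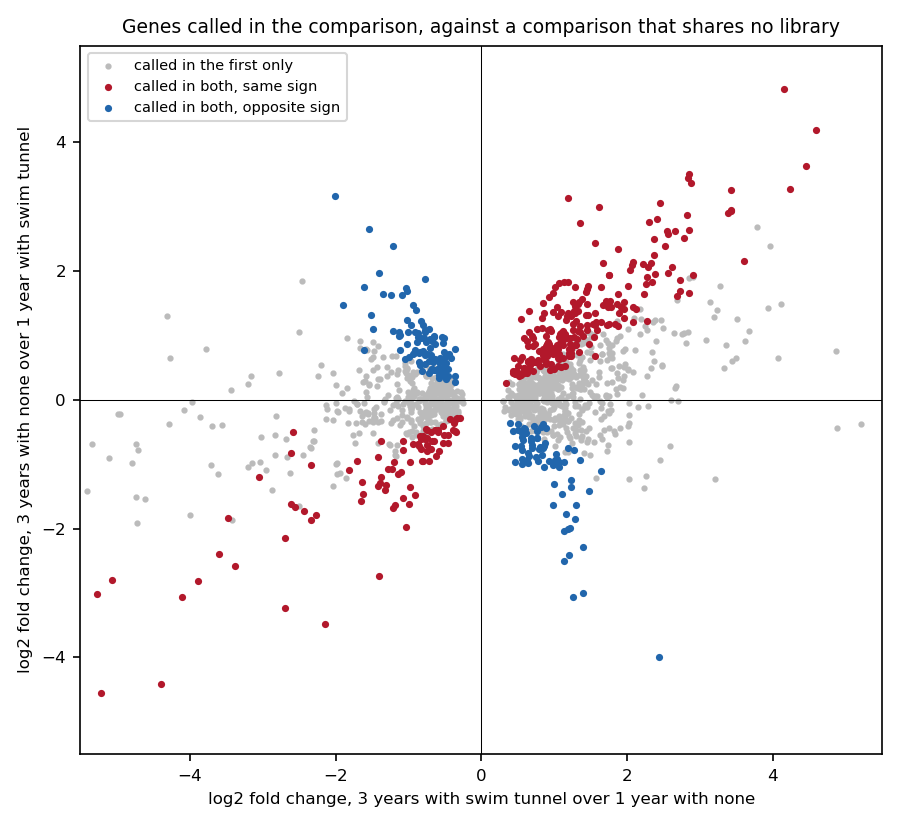
Log2 fold change of exercised 3-year over unexercised 1-year skin (horizontal) against that of unexercised 3-year over exercised 1-year skin (vertical) for the 1489 genes called in the first comparison, 22 of which lie outside the axes. Red points passed in both with the same sign, blue points in both with opposite signs, and grey points in the first alone.

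A level close to that of unexercised 1-year skin cannot be read from a missing call, so it was read from the 95% interval of the fold change. That interval lay inside 2-fold in either direction for 12906 of 20788 genes (62.1%). Among the 3289 genes higher in unexercised 3-year than in exercised 1-year fish it did so for 2174 (66.1%), with a median log2 fold change of -0.027 in the comparison of interest, and among the 2931 lower genes for 2141 (73%), with a median of 0.047. The share of all genes inside was 78.2% with a stricter expression filter and 47% with no filter. Counts inside the bound thus also depend on how precisely a list's genes were measured, and no share matched for abundance was computed.

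The core machinery of the cell was largely inside that bound. It held 84 of 85 measured cytosolic ribosomal proteins, 72 of 73 mitochondrial ribosomal proteins, 44 of 45 proteasome genes, 53 of 55 histone lysine methylases and demethylases, 37 of 39 regulators of mitochondria and all 13 mitochondrially encoded genes. The proteasome list depended on exercised 3-year replicate 4, which had the highest summed level of the members (3836 CPM). Without it 8 of 45 genes were lower and 1 higher (median -0.3), beside 0 lower and 1 higher with it (median -0.162). Of 86 nuclear genes of oxidative phosphorylation 81 were inside and 1 passed the test. That gene, COX4I2, a cytochrome oxidase subunit induced by low oxygen in mammals, had 23.7, 20.4, 25.6, 18.2 and 14.8 CPM in exercised 3-year fish and 7.77, 7.84, 9.66, 7.96 and 10.5 CPM in unexercised 1-year fish. All exercised 3-year libraries were above all unexercised 1-year ones (log2 fold change 1.23, SE 0.15, adjusted p = 0.000151), and unexercised 3-year and exercised 1-year fish had 16.8 ± 1.95 and 10.5 ± 1.52 CPM. The median of the 86 genes was -0.065 (-0.13 without unexercised 1-year replicate 4, 0.05 without replicate 5), beside -0.315 for the age step and 0.245 for the exercise step at 3 years. In the age step 1 gene passed higher and 1 lower, and in the exercise step 0 passed.

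Dermal collagens were inside the bound in 19 of 23 genes, and 0 passed in either direction (3 at an unadjusted p under 0.05, and 0 by DESeq2), while 1 was higher without exercised 3-year replicate 4. The median of the list was 0.145, from -0.06 without exercised 3-year replicate 3 to 0.27 without replicate 4, beside -0.384 for the age step and 0.612 for the exercise step. In each of those steps 0 of 23 genes passed, and both share the unexercised 3-year libraries. COL1A2, a chain of type I collagen, had 1204, 2428, 3115, 953 and 2326 CPM in exercised 3-year fish and 1968, 2598, 1571, 1837 and 2685 CPM in unexercised 1-year fish. The exercised 3-year libraries spanned the whole range of the unexercised 1-year ones and beyond (log2 fold change -0.09, 95% interval -0.76 to 0.58). Unexercised 3-year fish averaged 1126 ± 480.1 CPM and exercised 1-year fish 4143 ± 1442 CPM (SD, n = 5 each), -1.88 (SE 0.33, adjusted p = 0.000617) between them. Its partner chains col1a1a and COL1A1 had intervals of -0.78 to 0.50 and -0.82 to 0.57, and COL5A1, which nucleates fibrils, -0.53 to 0.67. COL12A1 (ENSDARG00000078322), a collagen on the fibril surface, had 0.45 (0.06 to 0.84, adjusted p = 0.148). These 5 collagens were picked with their values known.

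The 8 genes with the lowest age step differed in their level in exercised 3-year skin. Among them were NR1D1, dbpa and the clone-named gene lower in both comparisons, all given above. These were below unexercised 1-year skin. So was si:dkey-18a10.3 (log2 fold change -3.48, 95% interval -4.45 to -2.51). Of the genes with the highest age step, cfp, rorcb and cry3b were above unexercised 1-year skin, and not all of that set are given here. The remaining genes with the lowest age step follow. They were chosen by that step, so the levels are given with no test from shared libraries beyond the interval. The secreted phosphoprotein gene scpp7, of a family found in mineralised tissue, had 107, 64, 118, 64.4 and 89.7 CPM in exercised 3-year fish and 111, 111, 26.8, 59.9 and 79.4 CPM in unexercised 1-year fish. The groups overlapped (0.19, 95% interval -0.51 to 0.89), while unexercised 3-year fish had 35.4, 17.6, 24.6, 12.8 and 15.4 CPM and exercised 1-year fish 139, 91.4, 128, 158 and 82.8 CPM. The gene si:ch211-114l13.11 was near 0 in all 5 unexercised 3-year libraries (0.0182 to 0.147 CPM). It had 17.6, 0.0243, 13.6, 12 and 9.79 CPM in exercised 3-year fish and 8.1, 8.8, 0.0519, 6.73 and 7.52 CPM in unexercised 1-year fish, so that 1 library of each member group was also near 0 (95% interval -1.0 to 2.53). The matricellular signal CCN4 had 9.74, 6.11, 9.28, 3.07 and 12 CPM in exercised 3-year fish and 10, 18.2, 5.48, 8.52 and 10.8 CPM in unexercised 1-year fish (-0.40, -1.05 to 0.26), against 2.87 to 4.41 CPM in unexercised 3-year fish. DGAT2, an enzyme of triglyceride synthesis, had 2.07 to 9.86 CPM in exercised 3-year, 2.15 to 5.51 CPM in unexercised 3-year and 7.72 to 17.3 CPM in unexercised 1-year fish, with a fold change of -1.07 (95% interval -1.85 to -0.29).

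The cornified envelope gene evpla and the desmosomal cadherin dsc2l rose. The level of evpla was 595, 1142, 278, 805 and 513 CPM in exercised 3-year fish and 128, 307, 227.58, 207 and 392 CPM in unexercised 1-year fish. The groups overlapped in part (log2 fold change 1.4, SE 0.39, adjusted p = 0.0373), and evpla had 237 ± 79.7 CPM in unexercised 3-year and 1161 ± 611 CPM in exercised 1-year fish. The rise of dsc2l was 1.39 (SE 0.40, adjusted p = 0.0402). evpla and dsc2l kept the call in 13 and 13 of the 20 leave-one-out fits (highest adjusted p = 0.0901 without unexercised 1-year replicate 4, and 0.0993 without exercised 3-year replicate 2). In the list of superficial keratinocytes 3 of 33 genes were higher, beside 4.24% of all genes, and 0 lower, and 0 were higher when the member groups were fitted alone. Leave-one-out fits gave 0 to 5 higher: 0 without exercised 3-year replicate 1, 1 without replicate 2, 5 without exercised 1-year replicate 4, and 0 without each of unexercised 1-year replicates 1 to 4.

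Other genes were far lower, in some cases at 0, in exercised 3-year than in unexercised 1-year skin. The germinal centre GTPase relative nuggc.3 had 12.5, 18.4, 8.97, 32.6 and 4.4 CPM in exercised 3-year fish and 169.7, 222.98, 222.69, 208 and 181 CPM in unexercised 1-year fish (log2 fold change -3.71, SE 0.60, adjusted p = 0.00247). In unexercised 3-year fish it had 201, 40.1, 51.4, 230.90 and 18 CPM, high in replicates 1 and 4 alone, and in exercised 1-year fish 208 to 230 CPM. The clone-named gene si:dkey-266f7.5 repeated that split, with 0.0346, 0.0973, 0.0443, 0.129 and 0.0738 CPM in exercised 3-year fish and 108, 121, 183, 108 and 98.6 CPM in unexercised 1-year fish (log2 fold change -10.59, SE 1.90, adjusted p = 0.00414). It had 181, 0.199, 0.157, 115 and 0.0365 CPM in unexercised 3-year fish and 86.1 to 109 CPM in exercised 1-year fish. The genes si:dkey-266f7.4 and si:dkey-266f7.10, of the same clone name, had 0 counts in all 5 exercised 3-year libraries and in unexercised 3-year replicates 2, 3 and 5. They were at least 128.7-fold and 233.7-fold lower than in unexercised 1-year fish (1.98 ± 0.475 and 3.6 ± 2.79 CPM), against a floor of 3 counts over the group, which covers counting error only. Of these 4 genes, 3 were found in a RefSeq gene list and lie on 1 chromosome within a run of 4 entries. No source used here says how reads that match several near-identical copies were counted.

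A different split marked si:dkey-71b5.3, with 0 counts in all 5 exercised 3-year libraries and 5.01, 2.5, 6.57, 11.8 and 5.72 CPM in unexercised 1-year fish, at least 410.1-fold lower against the same floor. It had 7.25, 6.5, 4.04, 0 and 0.0182 CPM in unexercised 3-year fish, absent or nearly so in replicates 4 and 5. Its neighbour by clone name, si:dkey-71b5.6 (ENSDARG00000092801), was at least 71.01-fold lower and was also at 0 in those replicates. The gene si:ch211-57b15.1 was at least 83.88-fold lower, zgc:195170 at least 72.2-fold and si:dkey-71l4.2 at least 85.21-fold. In unexercised 1-year fish zgc:195170 was also at 0 in replicate 1, and si:dkey-71l4.2 was near 0 in replicate 4. zgc:195170 and si:dkey-71l4.2 kept the call in 8 and 11 of the 20 leave-one-out fits (highest adjusted p = 0.085 and 0.0634, without unexercised 1-year replicates 4 and 3). The genes at 0 other than si:dkey-71b5.3 were chosen after their values were seen. The inner ear gene otoa had 0.795, 1.22, 0.775, 5.5 and 1.25 CPM in exercised 3-year fish and 20.6, 13.2, 32.1, 53.3 and 30.1 CPM in unexercised 1-year fish (log2 fold change -3.96, SE 0.78, adjusted p = 0.00651), and TCIM (ENSDARG00000076858), a small transcriptional regulator, 13.4, 39.6, 35.9, 17 and 17.3 CPM in exercised 3-year fish and 387, 511, 229.8, 502 and 57 CPM in unexercised 1-year fish (log2 fold change -3.77, SE 0.65, adjusted p = 0.00385). Neither overlapped between the member groups, and both varied widely in unexercised 3-year fish (1.08 to 41.4 and 48 to 331 CPM).

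**Figure D3:**
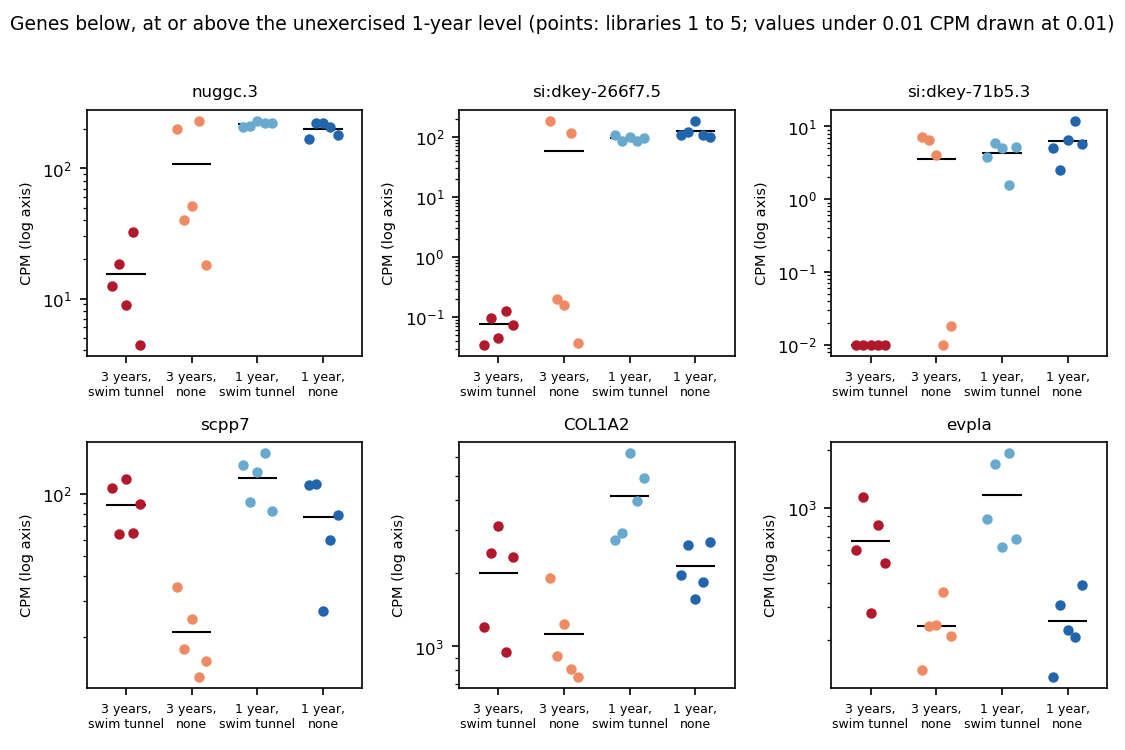
Levels in CPM (log axis) of 6 genes in 4 groups of 5 libraries, from left to right exercised 3-year, unexercised 3-year, exercised 1-year and unexercised 1-year fish, with values under 0.01 CPM drawn at 0.01 and a line at the mean. The upper genes were near 0 or low in exercised 3-year fish and split in unexercised 3-year fish, and of the lower genes scpp7 and COL1A2 overlapped between exercised 3-year and unexercised 1-year fish while evpla was higher on average in exercised 3-year fish.

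Some of the extreme fold changes rested on 1 library or came with overlapping groups. The killer-cell lysin gene nkl.2 had 3.11, 0.511, 0.709, 171 and 0.0492 CPM in exercised 3-year fish and 0.46, 0.772, 0.545, 0.402 and 0.213 CPM in unexercised 1-year fish, so that its log2 fold change of 6.21 (SE 1.53) rests on exercised 3-year replicate 4. Without that library it was 1.17 (adjusted p = 0.357). The ribosomal gene rps11l was near 1 CPM in all exercised 3-year libraries (0.566 to 1.01 CPM) and high in all unexercised 1-year libraries but replicate 1 (0.758, 27.8, 29.3, 24.9 and 27.9 CPM). Its call was kept in 11 of the 20 leave-one-out fits (highest adjusted p = 0.0815, without exercised 3-year replicate 1). The kinase gene ttbk1b rose by 3.62 (SE 0.61, adjusted p = 0.00295), with 9.05, 0.997, 12, 4.47 and 21.5 CPM in exercised 3-year fish and 0.569, 0.772, 1.09, 0.295 and 1.16 CPM in unexercised 1-year fish, and exercised 3-year replicate 2 lay within the unexercised 1-year range.

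Several neutrophil genes rose in exercised 3-year skin. Of 18 measured neutrophil genes, 7 were higher and 0 lower, beside 4.24% and 2.92% of all genes. Leave-one-out fits gave 5 to 8 higher and 0 to 2 lower, and the member groups fitted alone gave 3 higher. Without unexercised 1-year replicate 5 there were 5 higher and 2 lower, and DESeq2 called 9 higher and 1 lower. The median log2 fold change was 0.942 (range -1.024 to 1.847), beside 0.285 for the age step and 0.509 for the exercise step at 3 years. CSF3R, the receptor that drives granulocyte production, had 9.68, 7.27, 16.8, 18.3 and 12.9 CPM in exercised 3-year fish and 6.5, 4.85, 5.48, 3.91 and 3.56 CPM in unexercised 1-year fish. The groups did not overlap (log2 fold change 1.42, SE 0.28, adjusted p = 0.00623). SPI1, the master regulator of myeloid cells, had 47, 20.5, 49.8, 55.8 and 27.6 CPM in exercised 3-year fish and 16.6, 13.7, 13.3, 13 and 8.42 CPM in unexercised 1-year fish, with every exercised 3-year library above every unexercised 1-year one (log2 fold change 1.63, SE 0.24, adjusted p = 0.00102). The oxidase subunit cybb rose by 0.94 (SE 0.21), and the leukocyte integrin itgb2 by 0.95 (SE 0.19). The summed level of the list did not separate the groups (2783 to 3667 CPM in exercised 3-year and 2699 to 3554 CPM in unexercised 1-year libraries). MMP9, given below, is also counted among the higher genes of this list, while SPI1 is counted in the macrophage list.

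B cell genes showed 5 of 19 higher and 0 lower, beside 4.24% and 2.92% of all genes (4 to 6 higher in leave-one-out fits), with a median of 1.093. The adaptor blnk, of the B cell receptor, had 6.01, 3.21, 6.25, 13.3 and 3.35 CPM in exercised 3-year fish and 2.44, 2.59, 2.54, 2.68 and 1.52 CPM in unexercised 1-year fish. There was no overlap (log2 fold change 1.45, SE 0.31, adjusted p = 0.01), and replicate 4 was the highest (without it log2 1.00, adjusted p = 0.0192). The receptor cd22 rose by 1.2 (SE 0.25, adjusted p = 0.00806), SWAP70 (ENSDARG00000057286) by 0.94 (SE 0.18), the B cell factor EBF1 (ENSDARG00000069196) by 1.09 (SE 0.23) and the light chain gene igic1s1 by 2.68 (SE 0.68), all without overlap. The heavy chain ighm, picked with its values known, did not pass, at 85.4, 43, 88.3, 81.6 and 32.4 CPM in exercised 3-year fish and 10.24, 37.4, 7.35, 47.4 and 2.23 CPM in unexercised 1-year fish (log2 fold change 1.66, SE 0.72, adjusted p = 0.165).

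With all 20 libraries, macrophage and inflammatory genes had calls in the same direction, which depended on single libraries. Of 29 macrophage genes 6 were higher and 0 lower (median 0.505), beside 4.24% and 2.92% of all genes. Leaving out exercised 3-year replicate 4 gave 2 higher and replicate 5 gave 10, while leaving out unexercised 1-year replicates 1, 2, 4 or 5 gave 3, 2, 1 or 1. Without unexercised 1-year replicate 1, 1 macrophage gene was lower, and DESeq2 called 10 higher and 1 lower. The scavenger receptor marco had 62.8, 45.5, 94.2, 192 and 37 CPM in exercised 3-year fish and 31.9, 31.4, 49.7, 35.6 and 20.3 CPM in unexercised 1-year fish (log2 fold change 1.35, SE 0.35, adjusted p = 0.0252, and without exercised 3-year replicate 4 log2 0.82, adjusted p = 0.0635). The myeloid factor IRF8 had 28.5, 15.5, 25, 77.6 and 12.7 CPM in exercised 3-year fish and 16.7, 14.8, 12.5, 12.5 and 7.59 CPM in unexercised 1-year fish (log2 fold change 1.31, SE 0.36, adjusted p = 0.0357, and without that library log2 0.67, adjusted p = 0.0979). Of 48 inflammatory mediators 6 were higher and 0 lower (median 0.267), beside 4.24% and 2.92% of all genes. The higher count was 0 when the member groups were fitted alone and fell to 1 when exercised 3-year replicate 4 was left out and to 3, 3, 2 or 1 when unexercised 1-year replicate 1, 2, 4 or 5 was. Without unexercised 1-year replicate 5, 2 mediators were lower, and DESeq2 called 10 higher and 3 lower. Log2 fold changes over this list ran from -1.807 to 2.293. The cytokine il1b had 10.6, 6.86, 14, 25.1 and 5.19 CPM in exercised 3-year fish and 5.31, 4.66, 3.84, 2.46 and 3.15 CPM in unexercised 1-year fish (log2 fold change 1.67, SE 0.43, adjusted p = 0.0255, and without replicate 4 log2 1.24, adjusted p = 0.0674). The cytokine tnfb had 5.11, 3.84, 7.71, 16.3 and 2.21 CPM in exercised 3-year fish and 3.03, 1.82, 1.97, 1.82 and 1.92 CPM in unexercised 1-year fish (log2 fold change 1.73, SE 0.39, adjusted p = 0.0139), and the chemokine ccl19a.1 rose by 1.90 (SE 0.52), with log2 1.37, adjusted p = 0.0958 without replicate 4. The 47 interferon response genes had a median of 0.172, from -0.14 without exercised 3-year replicate 4 to 0.32 without replicate 5.

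The osteoclast genes ocstamp and ACP5 and the proteases MMP9 and mmp13b were highest in the same library. Of 18 osteoclast genes 4 were higher and 0 lower (median 0.354), beside 4.24% and 2.92% of all genes, and 2 were higher without either of unexercised 1-year replicates 1 and 5. MMP9 is counted among these and also in the neutrophil and metalloproteinase lists, so the 3 counts are not separate. The fusion gene ocstamp had 1.62, 0.705, 1.66, 5.11 and 0.59 CPM in exercised 3-year fish and 0.19, 0.34, 0.26, 0.429 and 0.0712 CPM in unexercised 1-year fish, low in all libraries but without overlap (log2 fold change 2.91, SE 0.58, adjusted p = 0.00732). The acid phosphatase ACP5, by which osteoclasts are stained, had 24.1, 12.3, 29.3, 126 and 10.3 CPM in exercised 3-year fish and 6.61, 10.4, 9.27, 11.7 and 4.39 CPM in unexercised 1-year fish (log2 fold change 2.25, SE 0.57, adjusted p = 0.0236, and without exercised 3-year replicate 4 log2 1.16, adjusted p = 0.0803). The osteoclast factor NFATC1 rose by 0.84 (SE 0.23) and kept the call in 12 of the 20 fits (highest adjusted p = 0.0867, without exercised 3-year replicate 5). The protease CTSK, added with its values known, did not pass (0.39, 95% interval 0.04 to 0.73). The summed level of the list was 717 to 1572 CPM in exercised 3-year libraries, highest in replicate 4, and 616.5 to 733.3 CPM in unexercised 1-year libraries.

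Of 24 metalloproteinases and their inhibitors 6 were higher and 0 lower, beside 4.24% and 2.92% of all genes (4 to 8 higher in leave-one-out fits, median 0.452). The member groups fitted alone gave 2 higher. The gelatinase MMP9 had 141, 119, 228.54, 531 and 107 CPM in exercised 3-year fish and 66.6, 55.9, 68.5, 66.4 and 55.9 CPM in unexercised 1-year fish. Exercised 3-year libraries were all on one side of the unexercised 1-year ones (log2 fold change 1.85, SE 0.35, adjusted p = 0.00572), and without replicate 4 the values were log2 1.25, adjusted p = 0.00732. The collagenase mmp13b had 13.9, 8.71, 20.6, 67.7 and 18.6 CPM in exercised 3-year fish and 11.2, 3.37, 2.39, 4.23 and 2.18 CPM in unexercised 1-year fish (log2 fold change 2.47, SE 0.57, adjusted p = 0.0153), and the inhibitor TIMP2 (ENSDARG00000075261) 13.9, 14.3, 31.9, 79.1 and 18.8 CPM in exercised 3-year fish and 7.96, 7.13, 17.5, 7.23 and 6.36 CPM in unexercised 1-year fish (log2 fold change 1.77, SE 0.42, adjusted p = 0.0178), both with a partial overlap. The membrane-bound MMP14 (ENSDARG00000002235) was raised little but evenly, with 169, 127, 187, 142 and 154 CPM in exercised 3-year fish and 126, 111, 121, 121 and 108 CPM in unexercised 1-year fish (log2 fold change 0.41, SE 0.11, adjusted p = 0.0316). It kept the call in 14 of the 20 fits (highest adjusted p = 0.0769, without exercised 3-year replicate 3). The naming rule did not pick this gene but another of the same symbol, MMP14 (ENSDARG00000008388). That gene was also called higher, with a lower p, and its values are not reported here. Osteopontin (spp1), a bone matrix and macrophage protein, had 34.4, 22.4, 66.2, 183 and 27.2 CPM in exercised 3-year fish and 10.5, 18.8, 9.16, 23.7 and 16.5 CPM in unexercised 1-year fish, where exercised 3-year replicate 2 lay just below the highest unexercised 1-year library (log2 fold change 2.08, SE 0.48, adjusted p = 0.0154). Without exercised 3-year replicate 4 the log2 fold changes of spp1, mmp13b and TIMP2 were 1.25, 1.72 and 1.09 (adjusted p = 0.0379, 0.041 and 0.0428). Those of ocstamp and tnfb were 2.14 and 1.16 (adjusted p = 0.0179 and 0.0323). That exercised 3-year replicate 4 carried the top value in SPI1, marco, IRF8, CSF3R, MMP9, ocstamp, ACP5, blnk and il1b was measured, and its part in these results was not tested beyond leaving it out.

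**Figure D4:**
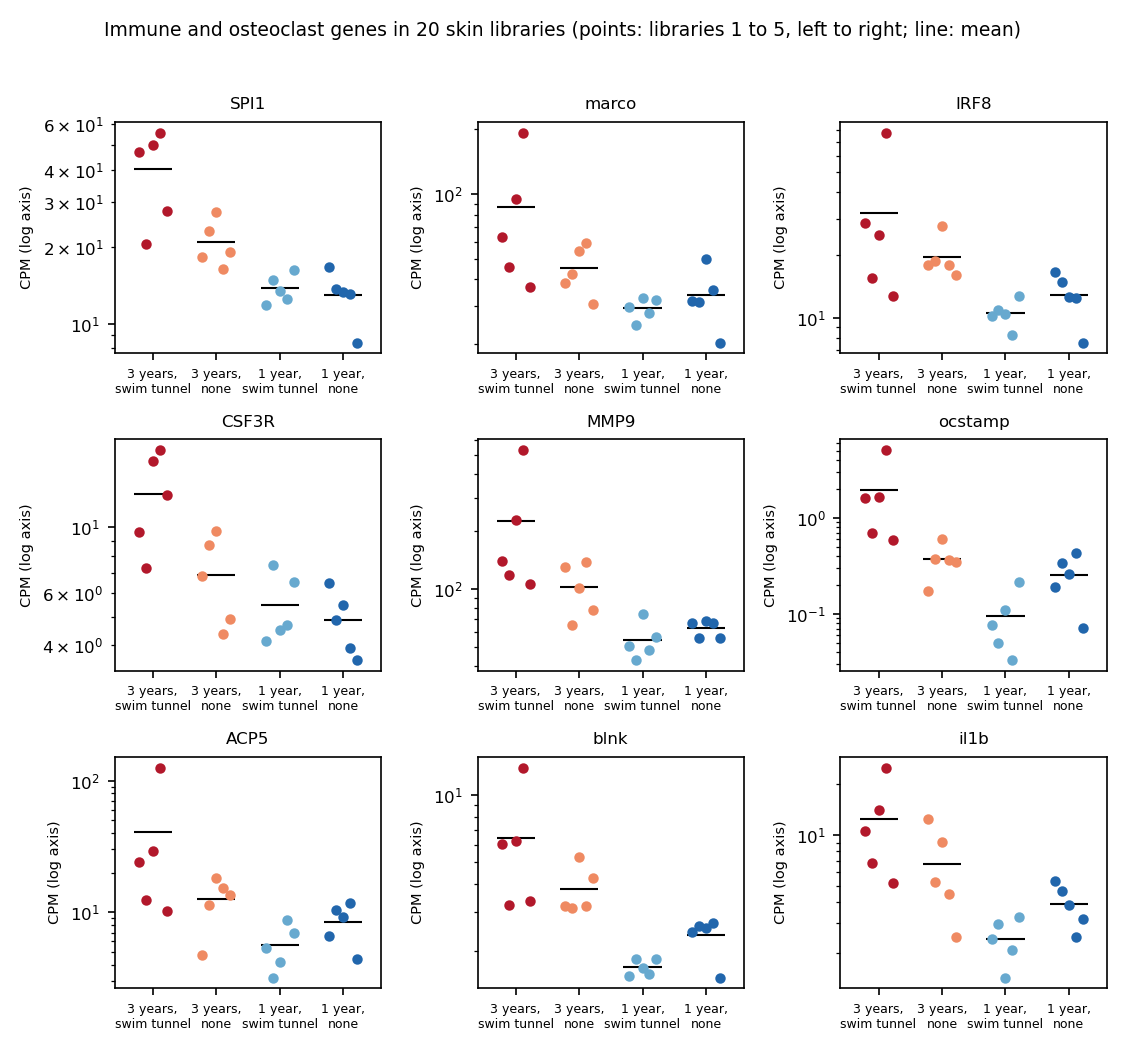
Levels in CPM (log axis) of 9 immune and osteoclast genes in 4 groups of 5 libraries, from left to right exercised 3-year, unexercised 3-year, exercised 1-year and unexercised 1-year fish, with 1 point per library and a line at the mean. The point of exercised 3-year replicate 4 is the highest of its group in each panel.

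Several vessel genes rose. Of 28 endothelial genes 8 were higher and 0 lower, beside 4.24% and 2.92% of all genes, with a median of 0.504. The count was 5 without either of exercised 3-year replicates 3 and 5, and 3 without each of unexercised 1-year replicates 2, 4 and 5. The gene plvapb, of the diaphragms of permeable vessels, had 92.8, 60.3, 104, 76.4 and 73.8 CPM in exercised 3-year fish and 43.1, 34.8, 38.2, 34.6 and 37.1 CPM in unexercised 1-year fish. The groups were separate (log2 fold change 1.12, SE 0.18, adjusted p = 0.00227). The adhesion gene pecam1a had 28.9, 22.8, 36, 27.2 and 36.4 CPM in exercised 3-year fish and 18.6, 11.6, 17.8, 11.2 and 16 CPM in unexercised 1-year fish, also without overlap (log2 fold change 1.01, SE 0.18, adjusted p = 0.00444). The receptors TIE1 and KDR rose by 0.78 (SE 0.18) and 0.57 (SE 0.17), the scavenger receptor stab2 by 1.00 (SE 0.27) and the growth factor VEGFA (ENSDARG00000103542) by 1.11 (SE 0.33). KDR, stab2 and VEGFA kept the call in 8, 13 and 5 of the 20 leave-one-out fits (highest adjusted p = 0.114, 0.0857 and 0.124, without unexercised 1-year replicate 4 for the receptors and exercised 3-year replicate 2 for VEGFA). KDR and VEGFA were picked with their values known. The summed level of the list was 380 to 624.9 CPM in exercised 3-year and 284.4 to 384.2 CPM in unexercised 1-year libraries.

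The list of complement and antimicrobial genes held 5 higher genes and 1 lower gene of 41, beside 4.24% and 2.92% of all genes. The summed level of this list was 1749 to 2430 CPM in exercised 3-year and 2208 to 3266 CPM in unexercised 1-year libraries. Medians of the same list were 1.003 for the age step and -0.418 for the exercise step. In the comparison of interest its median was 0.606, but -0.09 without exercised 3-year replicate 3, 1.0 without unexercised 1-year replicate 4 and 0.15 with the hepatocyte score as a covariate. The higher count was 3 without exercised 3-year replicate 4 and 3 without each of unexercised 1-year replicates 2, 4 and 5. Beside properdin, the complement factor cfbl, of the factor B family, had 33, 17.4, 47.5, 65.7 and 19.5 CPM in exercised 3-year fish and 10.3, 10.7, 14, 7.66 and 6.88 CPM in unexercised 1-year fish, without overlap (log2 fold change 1.89, SE 0.34, adjusted p = 0.00414). The component c4 had 86.3, 48.8, 138, 88 and 91.3 CPM in exercised 3-year fish and 30.8, 32.6, 38.1, 32 and 28.1 CPM in unexercised 1-year fish, and its ranges did not meet (log2 fold change 1.49, SE 0.27, adjusted p = 0.00421). The terminal component c7a rose by 1.07 (SE 0.29), and the alternative pathway protease cfd fell by 0.60 (SE 0.17). c7a and cfd kept the call in 14 and 8 of the 20 fits (highest adjusted p = 0.0883 and 0.105, without unexercised 1-year replicates 4 and 1).

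Around the collagens, some genes for molecules that coat or process fibrils rose. Of 36 matricellular and proteoglycan genes 7 were higher and 1 lower, beside 4.24% and 2.92% of all genes, so that the lower share was near that of all genes. The median was 0.27, and 0.09 and 0.14 without exercised 3-year replicates 3 and 5. The higher count became 2, 2 or 3 when exercised 3-year replicate 1, 3 or 5 was left out and 4, 2, 3, 2 or 2 when unexercised 1-year replicate 1, 2, 3, 4 or 5 was, so it depended on most of the members. The proteoglycan vcana had 69.5, 109, 154, 71.3 and 106 CPM in exercised 3-year fish and 51.1, 59.9, 61.9, 52.1 and 48.5 CPM in unexercised 1-year fish. Here too the groups lay apart and its call held in every leave-one-out fit (log2 fold change 0.90, SE 0.18, adjusted p = 0.0077). Decorin (DCN), which binds collagen fibrils, had 313, 185, 346, 209.05 and 388 CPM in exercised 3-year fish and 212.02, 148, 162, 203 and 143 CPM in unexercised 1-year fish (log2 fold change 0.73, SE 0.20, adjusted p = 0.033), and tenascin C, TNC (ENSDARG00000021948), 23.9, 7.56, 55, 12.7 and 32.8 CPM in exercised 3-year fish and 13.3, 12, 8.83, 6.64 and 8.7 CPM in unexercised 1-year fish (log2 fold change 1.42, SE 0.38, adjusted p = 0.0319), both with overlap. The crosslinking enzyme LOXL2 rose by 0.66 (SE 0.17, adjusted p = 0.0272), pcolcea, which speeds the removal of a collagen propeptide, by 0.98 (SE 0.27, adjusted p = 0.0346) and the basement membrane linker NID1 (ENSDARG00000068710) by 0.69 (SE 0.17, adjusted p = 0.0221). LOXL2, pcolcea, DCN, TNC and NID1 kept the call in 15, 13, 14, 13 and 17 of the 20 leave-one-out fits (highest adjusted p = 0.0683, 0.0801, 0.0787, 0.0944 and 0.0565, without exercised 3-year replicates 3 and 1, unexercised 1-year replicate 2, exercised 3-year replicate 3 and unexercised 1-year replicate 1).

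**Figure D5:**
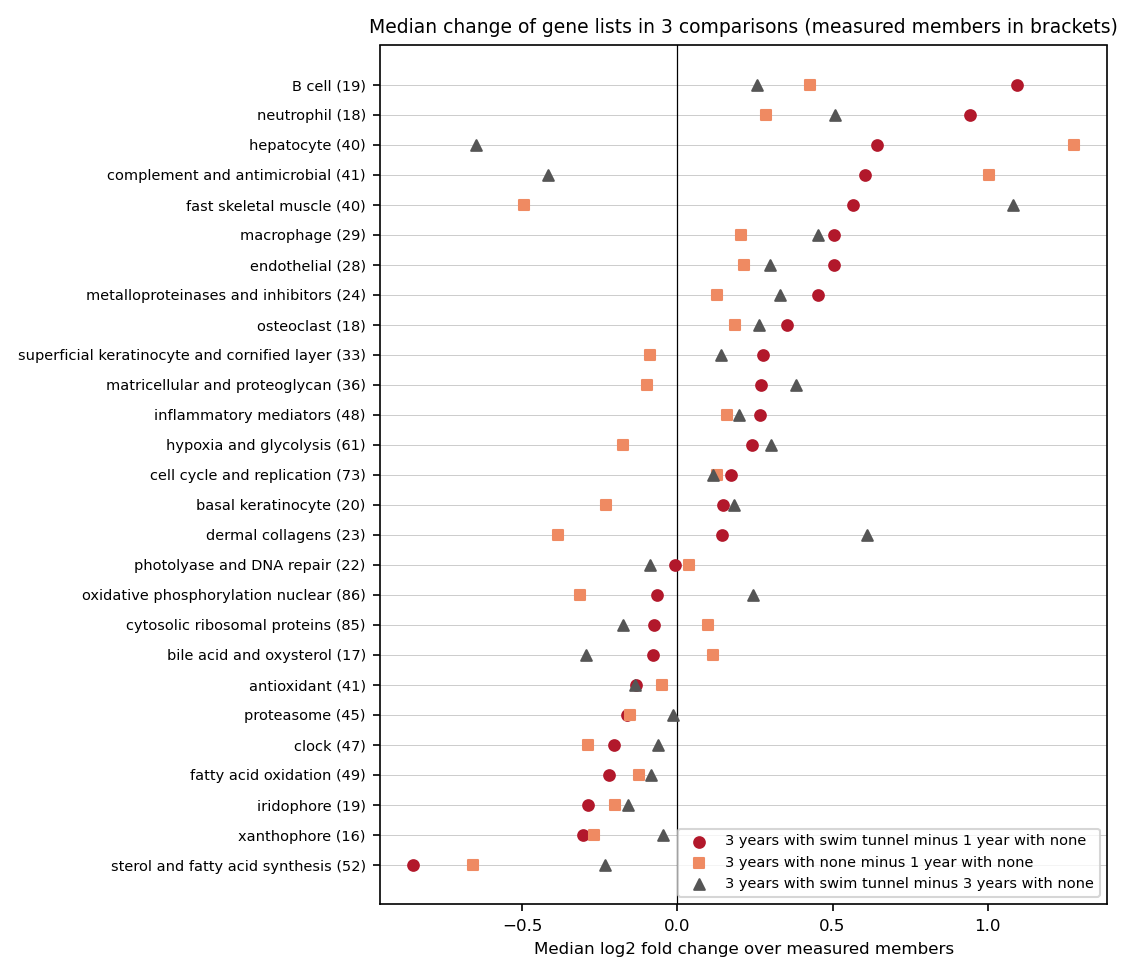
Median log2 fold change over the measured members of 27 gene lists (horizontal axis) for exercised 3-year over unexercised 1-year skin (circles), unexercised 3-year over unexercised 1-year skin (squares) and exercised over unexercised 3-year skin (triangles), which share libraries. B cell and neutrophil lists had the highest medians in the first comparison, 1.093 and 0.942, and sterol and fatty acid synthesis the lowest, -0.851.

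Some genes of lipid synthesis and oxidation were lower. Of 52 genes of sterol and fatty acid synthesis 7 were lower and 0 higher, against 2.92% and 4.24% of all genes, with a median of -0.851, beside -0.659 for the age step and -0.235 for the exercise step. Leaving out exercised 3-year replicate 1 gave 4 and replicate 5 gave 22, while leaving out unexercised 1-year replicates 4 or 5 gave 4 or 3. STARD4, which carries cholesterol between membranes, had 5.87, 5.25, 7.04, 4.21 and 8.86 CPM in exercised 3-year fish and 16, 10.5, 16.8, 18.1 and 19.8 CPM in unexercised 1-year fish. No library of one group entered the range of the other (log2 fold change -1.38, SE 0.25, adjusted p = 0.00439). HSD17B7, an enzyme of the pathway, had 389, 877, 398, 158 and 785 CPM in exercised 3-year fish and 1422, 882, 1365, 1475 and 2119 CPM in unexercised 1-year fish, with unexercised 1-year replicate 2 just above the highest exercised 3-year library (log2 fold change -1.48, SE 0.36, adjusted p = 0.0214). ACACA, which makes malonyl-CoA, fell by 0.67 (SE 0.15) and PMVK, of the mevalonate steps, by 2.30 (SE 0.54). HSD17B7 kept the call in 18 of the 20 fits (highest adjusted p = 0.0529, without exercised 3-year replicate 1).

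Most of the sterol genes did not pass. The isomerase EBP had 19.3, 69.2, 95.9, 20.4 and 453 CPM in exercised 3-year fish and 405, 45.4, 206, 892 and 1259 CPM in unexercised 1-year fish (log2 fold change -2.09, SE 0.90, adjusted p = 0.16). The groups overlapped, and unexercised 1-year replicate 2 lay among the exercised 3-year values. HMGCS1, LSS and FASN had log2 fold changes of -1.65, -1.85 and -0.90 with adjusted p = 0.167, 0.182 and 0.158. These 4 genes were picked with their values known.

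In bile acid and oxysterol metabolism 3 of 17 genes were lower and 1 higher, against 2.92% and 4.24% of all genes. The lower count was 1 without each of exercised 3-year replicates 1, 4 and 5 and of unexercised 1-year replicates 3 and 4. CYP7A1, which takes the first step from cholesterol to bile acids in liver, had 107, 179, 268, 57.7 and 66.9 CPM in exercised 3-year fish and 548, 317, 611, 1053 and 209.8 CPM in unexercised 1-year fish, with a slight overlap (log2 fold change -2.01, SE 0.56, adjusted p = 0.0358). It had 568 ± 232 CPM in unexercised 3-year and 63.5 ± 44.4 CPM in exercised 1-year fish, 3.16 (SE 0.58, adjusted p = 0.000862) between them. CYP8B1 (ENSDARG00000053068) had 5.08, 5.28, 22.9, 3.02 and 2.41 CPM in exercised 3-year fish and 30.4, 25.8, 78.2, 70.6 and 46 CPM in unexercised 1-year fish, without overlap (log2 fold change -2.69, SE 0.73, adjusted p = 0.0327), and cyp27a1.1, a sterol hydroxylase, 8.88, 7.69, 9.86, 11.9 and 8.29 CPM in exercised 3-year fish and 17, 21.7, 28.4, 18.8 and 23.8 CPM in unexercised 1-year fish, without overlap (log2 fold change -1.23, SE 0.20, adjusted p = 0.00224). The cholesterol exporter ABCA1 rose, with 55.5, 93.3, 69.4, 66 and 88.9 CPM in exercised 3-year fish and 21.8, 28.8, 49.1, 25.7 and 61.2 CPM in unexercised 1-year fish (log2 fold change 1.00, SE 0.25, adjusted p = 0.0221). CYP7A1, CYP8B1 and ABCA1 kept the call in 14, 13 and 17 of the 20 fits (highest adjusted p = 0.105, 0.0726 and 0.0625, without unexercised 1-year replicate 4, exercised 3-year replicate 1 and unexercised 1-year replicate 4). The summed level of 40 hepatocyte genes was 1688 to 2817 CPM in exercised 3-year and 1932 to 2846 CPM in unexercised 1-year libraries, and its part was not tested beyond a covariate.

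Fatty acid oxidation genes were lower in 5 of 49 (4 to 6 in leave-one-out fits) and higher in 0, against 2.92% and 4.24% of all genes, with a median of -0.222 (-0.13 without unexercised 1-year replicate 5). The member groups fitted alone gave 3 lower and 0 higher. CPT2, which releases acyl groups inside mitochondria, had 14.7, 11.7, 19.3, 13.3 and 16.8 CPM in exercised 3-year fish and 29.8, 22.1, 25.3, 22.2 and 33.4 CPM in unexercised 1-year fish. The ranges of the groups stayed apart (log2 fold change -0.81, SE 0.15, adjusted p = 0.00458). CPT1A, which admits them, had 20.9, 20.4, 28.1, 27 and 21.3 CPM in exercised 3-year fish and 34.4, 35.4, 34.9, 34.6 and 32.4 CPM in unexercised 1-year fish, again without overlap (log2 fold change -0.54, SE 0.13, adjusted p = 0.0154), and ACAA2, the last enzyme of the cycle, fell by 0.85 (SE 0.20). The summed level of 16 adipocyte genes was 1501 to 2214 CPM in exercised 3-year and 2197 to 3359 CPM in unexercised 1-year libraries. Their median log2 fold change was -0.053, with 1 gene lower and 1 higher, against 2.92% and 4.24% of all genes. Of the 41 antioxidant genes 6 were lower and 1 higher, against 2.92% and 4.24% of all genes, and 3 lower without each of exercised 3-year replicates 1 and 3 and of unexercised 1-year replicates 3 and 4. The peroxidase gpx1b had 2.21, 2.82, 2.3, 3.25 and 3.27 CPM in exercised 3-year fish and 5.36, 6.39, 5.35, 5.04 and 7.02 CPM in unexercised 1-year fish, without overlap (log2 fold change -1.07, SE 0.20, adjusted p = 0.00546), and SRXN1, which restores peroxiredoxins, fell by 0.96 (SE 0.24).

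Genes of hypoxia and glycolysis were 6 higher and 2 lower of 61, beside 4.24% and 2.92% of all genes, so that the lower share was near that of all genes. The median was 0.239, but 0.11 without exercised 3-year replicate 1, 0.12 without unexercised 1-year replicate 4 and 0.02 with the muscle score as a covariate. The higher count was 3 without either of unexercised 1-year replicates 1 and 4, and the lower count 6 without exercised 3-year replicate 4. The vasodilator peptide ADM (ENSDARG00000069027) had 18.6, 24.3, 46.4, 38.8 and 36.7 CPM in exercised 3-year fish and 17.4, 16.9, 14.9, 14.7 and 12.3 CPM in unexercised 1-year fish, without overlap (log2 fold change 1.11, SE 0.25, adjusted p = 0.0146). The glucose transporter slc2a3b rose by 0.96 (SE 0.22, adjusted p = 0.0146) and the stress gene NDRG1 (ENSDARG00000032849) by 0.85 (SE 0.17, adjusted p = 0.00647), while PFKFB3, which raises glycolysis, fell by 1.38 (SE 0.31, adjusted p = 0.0136). The leptin gene lepb, which is counted in the adipocyte list and not in this one, had 2.11, 1.82, 8.68, 8.52 and 2.73 CPM in exercised 3-year fish and 1.27, 0.618, 1.19, 0.536 and 0.593 CPM in unexercised 1-year fish, without overlap (log2 fold change 2.50, SE 0.51, adjusted p = 0.00809).

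In the pigment cell lists, some members of the xanthophore and iridophore lists were lower. In the xanthophore list 4 of 16 were lower and 0 higher (median -0.306), against 2.92% and 4.24% of all genes, and 1 was lower without each of exercised 3-year replicates 1, 3 and 4 and of unexercised 1-year replicates 1, 2, 4 and 5, and 2 without replicate 3. PTS, an enzyme of pteridine pigment synthesis, had 2.9, 3.96, 3.43, 2.89 and 2.95 CPM in exercised 3-year fish and 5.58, 5.28, 4.65, 6.59 and 4.46 CPM in unexercised 1-year fish. Both groups kept apart (log2 fold change -0.72, SE 0.15, adjusted p = 0.00987). The xanthophore gene aox5 had 14, 20.0, 12.7, 10.6 and 21.1 CPM in exercised 3-year fish and 30.5, 22.5, 27.9, 24.3 and 26 CPM in unexercised 1-year fish, without overlap (log2 fold change -0.74, SE 0.21, adjusted p = 0.0411). In the iridophore list 3 of 19 were lower (median -0.288), against 2.92% of all genes, and 1 was lower without exercised 3-year replicate 4 and 1 without unexercised 1-year replicate 2. The purine synthesis enzyme PAICS had 69.1, 83.6, 72, 70.7 and 76.9 CPM in exercised 3-year fish and 99.6, 109, 120, 103 and 114 CPM in unexercised 1-year fish, without overlap (log2 fold change -0.55, SE 0.11, adjusted p = 0.006), and the melanosome gene GPNMB fell by 0.86 (SE 0.25). aox5 and GPNMB kept the call in 12 and 9 of the 20 fits (highest adjusted p = 0.0879 and 0.0938, without unexercised 1-year replicate 1 and exercised 3-year replicate 3). The summed xanthophore level was 321.3 to 420.4 CPM in exercised 3-year and 403.1 to 446.2 CPM in unexercised 1-year libraries. Melanophore genes had a summed level of 48.39 to 83.43 CPM in exercised 3-year and 68.91 to 91.18 CPM in unexercised 1-year libraries.

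Of the remaining epidermal genes, the keratin krt18b rose by 0.74 (SE 0.18, adjusted p = 0.0213) and krt93 by 1.95 (SE 0.57, adjusted p = 0.0459), with krt93 highest in exercised 3-year replicate 3 (28.2 CPM). AGR2, a disulfide isomerase of mucous cells, had 172, 244, 71.6, 189 and 100.07 CPM in exercised 3-year fish and 208, 337, 236, 249 and 433 CPM in unexercised 1-year fish (log2 fold change -0.92, SE 0.27, adjusted p = 0.0487). krt18b, krt93 and AGR2 kept the call in 18, 8 and 3 of the 20 leave-one-out fits (highest adjusted p = 0.0541 and 0.165 without exercised 3-year replicate 3, and 0.122 without unexercised 1-year replicate 5). Cell division genes had no stable count: 4 of 73 were higher, a share near the 4.24% of all genes, and leave-one-out fits gave 0 (without exercised 3-year replicate 4, among others) to 21 (without exercised 3-year replicate 5). CDK1 and CCND1 kept the call in 5 and 11 of the 20 fits. CDK1, the kinase of mitosis, had 17.8, 13.9, 23.3, 41.1 and 6.12 CPM in exercised 3-year fish and 9.05, 8.96, 10.3, 7.74 and 6.69 CPM in unexercised 1-year fish (log2 fold change 1.26, SE 0.37, adjusted p = 0.0452, and without replicate 4 log2 0.84, adjusted p = 0.126). CCND1, which starts the cycle, had 49, 55.9, 49.5, 99.1 and 46 CPM in exercised 3-year fish and 35, 45.4, 24.5, 25 and 46.3 CPM in unexercised 1-year fish (log2 fold change 0.77, SE 0.22, adjusted p = 0.0394, and without replicate 4 log2 0.51, adjusted p = 0.099).

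Fast skeletal muscle transcripts, which a skin sample can carry from the tissue beneath, were uneven among exercised 3-year libraries, with summed levels of 30440, 7905, 21000, 4518 and 21870 CPM in replicates 1 to 5, and 11520, 10330, 14720, 6255 and 16060 CPM in unexercised 1-year replicates 1 to 5. Of 40 genes 0 passed (2 at an unadjusted p under 0.05), with a median of 0.566 (0.23 without exercised 3-year replicate 1), and DESeq2 also called 0. With the muscle score as a covariate 1377 genes passed in place of 1489, and with the hepatocyte score 1469. Over all 54 lists, 169 of 1812 measured genes passed (9.33%), beside 7.16% of all tested genes. Of the measured genes, 69 lay in more than 1 list.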

How the data were processed

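The authors deposited a table of read counts per gene for 20 skin libraries, whole numbers that are not normalized. Per the submitters' processing notes, the build was GRCz10 and the tools were STAR 2.4.1d, featureCounts 1.4.6-p4 and bcl2fastq 1.8.4, with no settings. The annotation and the treatment of reads that match several genes are not given in these sources. Libraries were made with a kit that does not mark strand, per the labels' protocols, so overlapping and antisense genes cannot be told apart. The deposited RPKM values were not used.

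The table holds 32105 genes, 26269 with a symbol, and its totals serve as library depth. Counts were scaled by TMM and tested with edgeR 4.0.16 (R 4.3.3) in 1 quasi-likelihood model of 4 group means with robust dispersion (16 residual degrees of freedom), over the 20788 genes kept by filterByExpr, with Benjamini-Hochberg adjustment at 0.05. Biological variation was 34.7% (coefficient). Intervals are 95% intervals of the fitted log2 fold change. The script was tested on simulated counts. Alternatives used DESeq2 1.42.0, limma 3.58.1 (voom), other scalings, filters, covariates and fits without 1 library.

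Members and gene lists were chosen with earlier results of these data known. Genes were named by this rule: the 12 highest and 12 lowest log2 fold changes among called genes with a symbol and 5 CPM or more in either group, up to 5 called members per list by p, the 8 highest and 8 lowest of the age step by the same minimum, and the 8 of lowest p in each class of genes called in both comparisons without shared libraries; clock members are given by role. No 2 libraries of the same group agreed within sampling noise. Results on some genes that the rule names are not reported here.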

Additional observations from a re-analysis of the deposited data

Results flagged for a closer look

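Within each group of 5 libraries, the gap between the most extreme library and its neighbour was set against the range of the group (Dixon's ratio, critical value 0.71) for 150 genes named in the text or related to them. It passed in 34 of 300 groups (11.3%). A rate of about 1 in 20 holds for values with a normal spread, and CPM were used here without a log scale. The genes were also largely picked for their changes, so no excess over chance is read from the count.

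Exercised 3-year replicate 4 accounted for 11 of the 34. It stood above its group in nkl.2 (171.4 CPM), MMP9 (531.1 CPM), mmp13b (67.68 CPM), TIMP2 (ENSDARG00000075261) (79.06 CPM) and spp1 (183.5 CPM). The same library was highest in the osteoclast genes ocstamp (5.113 CPM) and ACP5 (125.9 CPM). It was also highest in IRF8 (77.64 CPM), c7a (292.8 CPM), CCND1 (99.07 CPM) and otoa (5.5 CPM).

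In exercised 3-year replicate 5 the sterol genes LSS, EBP and PMVK stood high at 188 CPM, 453 CPM and 8.486 CPM, as did NHSL3 at 37.54 CPM. Exercised 3-year replicate 3 was apart in krt93 (28.17 CPM), GPNMB (8.438 CPM), CYP8B1 (ENSDARG00000053068) (22.9 CPM) and ACAA2 (17.43 CPM). Exercised 3-year replicate 2 was apart in PER2 (132.4 CPM) and cry3a (538 CPM).

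Among unexercised 1-year fish, replicate 1 was apart in mmp13b (11.21 CPM), rps11l (0.7584 CPM), PARP1 (51.32 CPM), tnfb (3.033 CPM) and ms4a17a.7 (7.367 CPM). Replicate 2 was apart in FAM161B (3.49 CPM) and replicate 5 in blnk (1.518 CPM). Replicate 3 was apart in si:ch211-233m11.1 (1.895 CPM), si:dkey-266f7.5 (183.2 CPM), si:dkey-266f7.10 (8.541 CPM), si:ch211-114l13.11 (0.05192 CPM), TIMP2 (ENSDARG00000075261) (17.52 CPM) and col1a1a (1143 CPM). What set these libraries apart was not tested.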

How the results depend on the processing

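No direction turned among the 124 called genes under the alternatives that gave them an adjusted p, and 61 kept their call in each of those. The stricter filter, DESeq2 and the compared groups alone gave no adjusted p for some of the genes checked. Among named genes without a call, COL1A2 (-0.303 to 0.089), col1a1a (-0.293 to 0.054), COL1A1 (-0.323 to 0.08), COL5A1 (-0.214 to 0.246), scpp7 (-0.028 to 0.356) and npas2 (-0.033 to 0.268) changed sign when single libraries were left out. For exercised 3-year against unexercised 1-year skin, 983 genes passed with a stricter filter, 2465 with DESeq2, 610 with the compared groups alone and 442 with unexercised 1-year replicates 1 and 5 left out together, an alternative chosen after seeing the data, against 1489. The age step gave 842 with DESeq2, 933 with voom, 129 with the compared groups alone, 86 with the hepatocyte covariate and 17 without those 2 libraries, against 201. The exercise step at 3 years gave 1298 with DESeq2, 39 with voom and 50 each with the compared groups alone, the muscle covariate and the hepatocyte covariate, against 275. Genes called over the lists were 281 with DESeq2, 73 with the compared groups alone and 60 without those 2 libraries, against 169. Without 1 library at a time the ranges were 776 to 1650, 43 to 393, 42 to 390 and, for the lists, 92 to 198 (108, 106 and 92 without unexercised 1-year replicates 1, 2 and 4). The share of higher genes was 59.2%, but 48.9% with the compared groups alone. The count inside 2-fold ran from 10204 (stricter filter, 13048 genes tested) to 13195. The cause of these shifts was not tested. The compared groups alone lost 46 of the named calls and the muscle covariate 15. No paired analysis was possible because replicate numbers follow accession order and the fish of different groups are different individuals. Genes under about 1 CPM rest on few counts.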
